A study of Mus musculus with 4 samples.

Results

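Steroid production by Leydig cells was followed here through 10 genes (Lhcgr, Nr5a1, Scarb1, Star, Cyp11a1, Hsd3b1, Hsd3b6, Cyp17a1, Hsd17b3 and Insl3) in libraries made from mouse germ cells. The genes were taken by name, with earlier results of these data known. All 10 were found among the 23980 genes of the expression table. The libraries came from leptotene/zygotene (L/Z) spermatocytes, germ cells in early meiotic prophase, which were collected from the testis by fluorescence-activated cell sorting at 3 to 4 weeks after birth. The study compared germ cells lacking Pld6, which is needed to make PIWI-interacting RNAs, and germ cells lacking Dnmt3l, a cofactor of de novo DNA methylation, with germ cells of their lines that kept the gene.

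The 4 libraries were labelled Dnmt3L Het (heterozygous), Dnmt3L KO (knockout), Pld6 KO and Pld6 WT (wild type). All 4 came from F1 hybrids of the C57BL6/J and MSM/Ms strains, so every group shared this background. Each genotype had 1 library. The number of animals behind a library is not given in the sources used here, so the genotype, the animals and the sort of a library cannot be told apart. No test over replicates was possible, and none was run. PolyA(+) RNA was sequenced with strand information as single reads of 50 bases.

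Leydig cells lie between the seminiferous tubules, outside the compartment of the germ cells. Luteinizing hormone acts on them through the receptor LHCGR, cholesterol enters the cell and is carried to the inner mitochondrial membrane by STAR, and CYP11A1, the 3β-hydroxysteroid dehydrogenases, CYP17A1 and HSD17B3 then convert it to testosterone. Germ cells are not known to carry out this pathway, so these transcripts are usually read in the testis as marks of the interstitium. Some members are not restricted to Leydig cells: Nr5a1 and Scarb1 are also used by Sertoli cells, the somatic cells that surround the germ cells.

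The deposited values were FPKM (fragments scaled to transcript length and to library size) and estimated fragments per gene. The fragments assigned to genes summed to 63875934 in Dnmt3L Het, 49932330 in Dnmt3L KO, 30439943 in Pld6 KO and 40541149 in Pld6 WT. These sums lie above the numbers of reads that the study's methods give for L/Z libraries. Either those numbers describe other libraries or a fragment may not stand for 1 independent read, and which holds is not known. From 13320 to 14276 genes reached 1 FPKM in a library. All 12 L/Z markers, among them Sycp3 and Dmc1, were at or above 1 FPKM in every library. A mixed library could also pass this bar. The sum of 15 Sertoli markers was above that of the 12 L/Z markers in Dnmt3L Het (5560.1 against 1597 FPKM) and Dnmt3L KO (7414 against 997). It was below the L/Z sum in Pld6 KO (505 against 1654) and Pld6 WT (186 against 2759). Pld6 stood at 17.2 FPKM in Dnmt3L Het, 8.55 in Dnmt3L KO, 0.334 (14 fragments) in Pld6 KO and 19.5 in Pld6 WT. Dnmt3l, low throughout, was at 1.27, 0, 0.432 and 0.980 FPKM in the same order, and its 0 fragments in Dnmt3L KO do not exclude a low level. Both targeted genes were thus lowest in the library labelled as their knockout. Round spermatid markers (10 genes) summed to 6998 FPKM in Dnmt3L Het, 27.5 in Dnmt3L KO, 10.6 in Pld6 KO and 162 in Pld6 WT, so Dnmt3L Het stood apart from the others in these markers.

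All 10 Leydig genes were detected in all 4 libraries, and each of the 10 was lowest in Pld6 WT. Together they summed to 479 FPKM in Dnmt3L Het, 522 in Dnmt3L KO, 291 in Pld6 KO and 57.3 in Pld6 WT. They took 41664, 36722, 10862 and 3985 fragments in the same order. The highest level was in Dnmt3L Het for 5 of the 10 genes (Cyp11a1, Hsd3b1, Cyp17a1, Hsd17b3 and Insl3), in Dnmt3L KO for 4 (Lhcgr, Nr5a1, Scarb1 and Star) and in Pld6 KO for Hsd3b6. In such sorted material fewer cells of a type and less RNA per cell cannot be told apart. Intervals given below are exact (Clopper-Pearson) 95% intervals from the fragments of both values. They cover counting error only, and may be too narrow because reads carried no molecular identifiers and because of the fragment sums above.

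**Figure D1:**
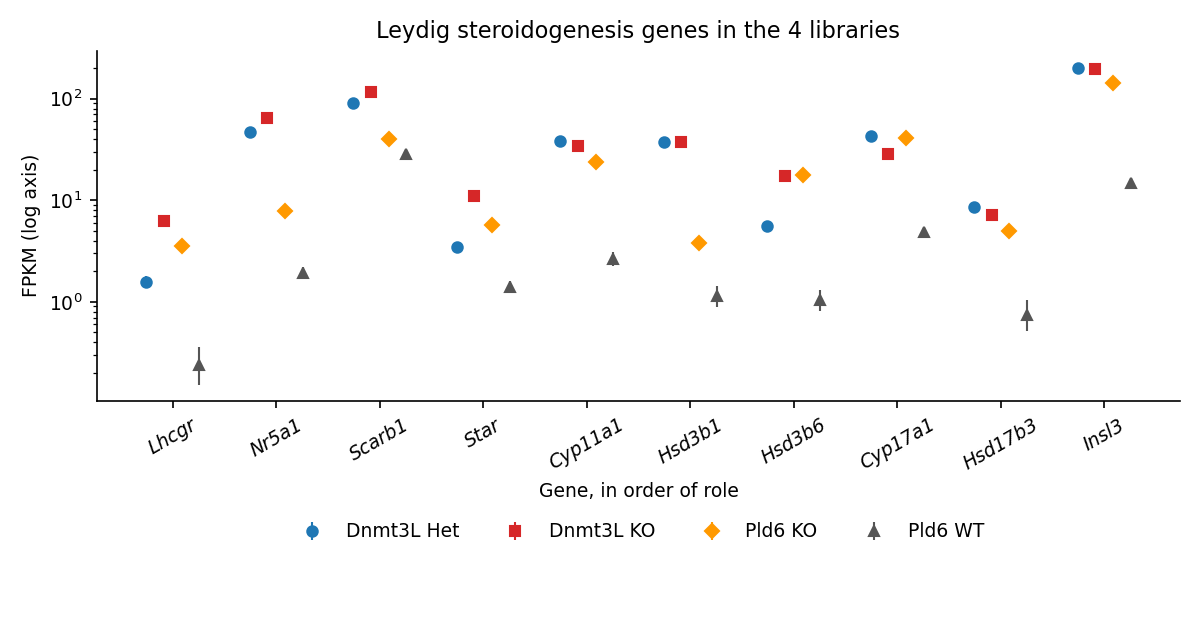
Level of each of the 10 genes in each library, in FPKM on a log axis, with genes ordered by role and bars for the 95% counting interval. Pld6 WT is the lowest point for every gene, at 0.240 FPKM for Lhcgr and 14.7 for Insl3, while the order of the other 3 libraries changes from gene to gene.

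Lhcgr, the luteinizing hormone receptor that starts the pathway, lies on chromosome 17 (88716384 to 88792059 of mm10, as all positions here). It was at 1.57 FPKM in Dnmt3L Het, 6.29 in Dnmt3L KO, 3.58 in Pld6 KO and 0.240 in Pld6 WT, from 239, 701, 267 and 23 fragments. Both knockouts were above both other libraries. The level was 4.02-fold higher in Dnmt3L KO than in Dnmt3L Het (3.46 to 4.67) and 14.9-fold higher in Pld6 KO than in Pld6 WT (9.73 to 23.9). The width of the latter interval comes from the 23 fragments in Pld6 WT, the fewest of any member in any library.

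Nr5a1 (chromosome 2, 38692656 to 38714542) encodes steroidogenic factor 1, a nuclear receptor that activates many of the genes described here. Its level was 47.0 FPKM in Dnmt3L Het, 65.3 in Dnmt3L KO, 7.90 in Pld6 KO and 1.94 in Pld6 WT. Both libraries of the Dnmt3L line were thus far above both of the Pld6 line. Nr5a1 was 24.2-fold higher in Dnmt3L Het than in Pld6 WT (21.2 to 27.9) and 8.27-fold higher in Dnmt3L KO than in Pld6 KO (7.65 to 8.95). Within a line the knockout was the higher library, 1.39-fold in the Dnmt3L line (1.35 to 1.43) and 4.07-fold in the Pld6 line (3.49 to 4.77).

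Scarb1 (chromosome 5, 125277087 to 125341094) encodes the receptor that takes up cholesterol esters from high-density lipoprotein. It stood at 91.7 FPKM in Dnmt3L Het, 117 in Dnmt3L KO, 40.4 in Pld6 KO and 28.7 in Pld6 WT. It changed least of the 10 genes between the lowest and the highest library, with Dnmt3L KO 4.07-fold above Pld6 WT (3.91 to 4.25). In Pld6 WT it made up 50% of the summed FPKM of the 10 genes, against 13.9% to 22.4% in the other libraries.

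Star (chromosome 8, 25808474 to 25815982) encodes the protein that moves cholesterol into mitochondria, the acutely regulated step of the pathway. Its level was 3.46 FPKM in Dnmt3L Het, 10.9 in Dnmt3L KO, 5.68 in Pld6 KO and 1.39 in Pld6 WT. As with Lhcgr, both knockouts lay above both other libraries. Star was 3.15-fold higher in Dnmt3L KO than in Dnmt3L Het (2.90 to 3.41) and 4.07-fold higher in Pld6 KO than in Pld6 WT (3.49 to 4.77).

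Cyp11a1 (chromosome 9, 57998024 to 58027031), the side-chain cleavage enzyme that makes pregnenolone from cholesterol, was at 38.4 FPKM in Dnmt3L Het, 34.6 in Dnmt3L KO, 23.6 in Pld6 KO and 2.64 in Pld6 WT. Only Pld6 WT was far from the rest. The level was 8.95-fold higher in Pld6 KO than in Pld6 WT (7.61 to 10.6) and 0.902 times that of Dnmt3L Het in Dnmt3L KO (0.857 to 0.948).

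Hsd3b1 and Hsd3b6 encode 3β-hydroxysteroid dehydrogenases, which turn pregnenolone into progesterone. In mouse Leydig cells Hsd3b1 is known from fetal life on and Hsd3b6 as an enzyme of the adult cells. The pair lies on the minus strand of chromosome 3, Hsd3b6 at 98805504 to 98814443 and Hsd3b1 at 98842356 to 98859794, with 27.9 kb between them. Hsd3b1 was at 37.6 FPKM in Dnmt3L Het, 37.3 in Dnmt3L KO, 3.80 in Pld6 KO and 1.13 in Pld6 WT. Hsd3b6 was at 5.64 FPKM in Dnmt3L Het, 17.2 in Dnmt3L KO, 17.6 in Pld6 KO and 1.04 in Pld6 WT. The neighbours were ordered differently: Hsd3b1 was high in the Dnmt3L line and low in the Pld6 line, whereas Hsd3b6 was high in both knockouts.

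For Hsd3b1 the libraries of the Dnmt3L line could not be told apart by counting error (ratio of Dnmt3L KO to Dnmt3L Het 0.991, 0.945 to 1.04), and Dnmt3L KO was 9.80-fold above Pld6 KO (8.49 to 11.4). For Hsd3b6 it was the knockouts that could not be told apart (ratio of Pld6 KO to Dnmt3L KO 1.02, 0.937 to 1.11). Hsd3b6 was 3.05-fold higher in Dnmt3L KO than in Dnmt3L Het (2.77 to 3.37) and 16.9-fold higher in Pld6 KO than in Pld6 WT (13.2 to 21.9).

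Cyp17a1 (chromosome 19, 46667165 to 46673000), which makes androgen precursors by its hydroxylase and lyase activities, was at 43.0 FPKM in Dnmt3L Het, 28.5 in Dnmt3L KO, 41.0 in Pld6 KO and 4.82 in Pld6 WT. Dnmt3L Het and Pld6 KO were level (ratio of Pld6 KO to Dnmt3L Het 0.956, 0.907 to 1.01). Cyp17a1 was 8.51-fold higher in Pld6 KO than in Pld6 WT (7.56 to 9.60), and in Dnmt3L KO it was 0.664 times its level in Dnmt3L Het (0.631 to 0.699).

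Hsd17b3 (chromosome 13, 64058274 to 64089262) encodes the enzyme of the last step, from androstenedione to testosterone. It was at 8.68 FPKM in Dnmt3L Het, 7.22 in Dnmt3L KO, 5.0 in Pld6 KO and 0.748 in Pld6 WT. The order matched that of Cyp11a1. Pld6 KO was 6.69-fold above Pld6 WT (4.59 to 10), and Dnmt3L KO was 0.832 times Dnmt3L Het (0.729 to 0.948).

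Insl3 (chromosome 8, 71689252 to 71690577), a peptide hormone of Leydig cells that guides testis descent and marks their differentiated state, was the most abundant of the 10 genes outside Pld6 WT. Its level was 202 FPKM in Dnmt3L Het, 198 in Dnmt3L KO, 142 in Pld6 KO and 14.7 in Pld6 WT. The libraries of the Dnmt3L line were level (ratio of Dnmt3L KO to Dnmt3L Het 0.983, 0.942 to 1.03), and Pld6 KO was 9.67-fold above Pld6 WT (8.42 to 11.1). Insl3 lies within Jak3 (71676383 to 71690577) on the same strand, and 61.8% of the 574 windows of 50 bases in its transcripts also occur in Jak3 transcripts, so fragments could be split between them. Jak3 was at 1.19, 0.391, 2.09 and 0.928 FPKM in Dnmt3L Het, Dnmt3L KO, Pld6 KO and Pld6 WT, far below Insl3 in each library.

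The 150 bases before the start sites of Hsd3b6, Hsd3b1 and Insl3 are shown because the first pair are neighbours with different patterns and Insl3 is the most abundant Leydig marker. The sequences are from RefSeq (GRCm38.p6, the assembly of mm10), 5′ to 3′ on the strand of the gene, with Hsd3b6 at chr3:98814444-98814593 (minus strand), Hsd3b1 at chr3:98859795-98859944 (minus strand) and Insl3 at chr8:71689102-71689251 (plus strand). Capitals mark AAGGTC or AAGGCC on either strand, the core of the letters that NR5A1 is known to bind.
Hsd3b6: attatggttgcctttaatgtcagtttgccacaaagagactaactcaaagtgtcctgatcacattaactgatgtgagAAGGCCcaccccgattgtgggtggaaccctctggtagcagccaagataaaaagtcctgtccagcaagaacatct
Hsd3b1: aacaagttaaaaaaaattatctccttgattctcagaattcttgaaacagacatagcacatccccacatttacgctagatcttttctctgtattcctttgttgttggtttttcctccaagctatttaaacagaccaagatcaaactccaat
Insl3: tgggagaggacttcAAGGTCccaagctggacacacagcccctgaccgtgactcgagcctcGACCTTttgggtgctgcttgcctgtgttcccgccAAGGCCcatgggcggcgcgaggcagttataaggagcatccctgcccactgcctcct
Promoter windows of 250 bases before to 50 after the start site were found for 6 of the 10 genes (7 windows), and Nr5a1, Scarb1, Star and Cyp17a1 had none in the table. The longer motif, AAGGTCA or AAGGCCA on either strand, was in 0 of the 7 windows and in 10.6% of all 32851 windows. The core of 6 letters, chosen after the longer search had been seen, lies within the longer motif and was in 2 of the 7 windows (28.6%), beside 26.7% of all windows. Those windows were of Hsd3b6, with AAGGCC 74 bases before the start site, and of Insl3, with matches 136, 90 and 56 bases before it. A share near that of all promoters describes the letters in these windows and nothing of binding.

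The comparisons within each line were then counted over the 10 genes. A gene was called when its FPKM + 1 differed by more than 2-fold, and the same count over all 23980 genes gave the background. In Pld6 KO against Pld6 WT, 9 of the 10 genes were called higher (background 4.69%) and 0 lower (background 6.46%), with Scarb1 the gene not called. The median log2 change on the FPKM + 1 scale was 1.83 (0.48 to 3.19), beside 0.00 over all genes. The called genes ran from the hormone receptor to the last enzyme of the pathway. It holds against Pld6 WT only: against Dnmt3L Het, Pld6 KO had 1 of the 10 genes called higher (Hsd3b6, background 5.55%) and 3 lower (Nr5a1, Scarb1 and Hsd3b1, background 13.4%), with a median of -0.59.

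In Dnmt3L KO against Dnmt3L Het, 3 of the 10 genes were called higher (background 3.00%) and 0 lower (background 8.22%). The 3 were Lhcgr, Star and Hsd3b6, at log2 changes of 1.51, 1.41 and 1.46, and none of them passed 3-fold on that scale. The median over the 10 genes was 0.17 (-0.57 to 1.51), beside 0.00 over all genes. Of the 10 changes, 5 were above 0, near the share of 43.0% over all genes. Receptor, cholesterol carrier and one 3β-hydroxysteroid dehydrogenase were thus higher in the knockout, while Cyp11a1, Cyp17a1 and Hsd17b3 were lower by less than the threshold and Hsd3b1 and Insl3 were level. Against Pld6 WT in place of Dnmt3L Het, all 10 genes were called higher in Dnmt3L KO (background 12.1%), with a median of 2.86.

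By the median of the 10 genes, the libraries without a homozygous knockout differed from each other more than either knockout did from the other library of its line. In Dnmt3L Het against Pld6 WT, 9 of the 10 genes were called higher (background 11.1%) and 0 lower (background 3.77%), with a median of 2.69 (0.90 to 4.18). Star, at 0.90, was the gene not called, and Hsd3b1, at 33.3-fold (26.5 to 42.3), differed most. Line and heterozygosity cannot be told apart in this comparison. A stricter count therefore asked which genes lay beyond both of these libraries. Pld6 KO was beyond both for 1 of the 10 genes, Hsd3b6, on the higher side (background 1.04%) and for 0 on the lower side (background 5.41%). Dnmt3L KO was beyond both for 3, Lhcgr, Star and Hsd3b6, on the higher side (background 2.14%) and for 0 on the lower side (background 5.78%). These comparisons share libraries and are not independent. Hsd3b6 was the member that passed in both knockouts. The share of all genes that passed in both was not counted. Hsd3b6 was not alone in this, as Nr4a1, a regulator described below, also passed in both.

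**Figure D2:**
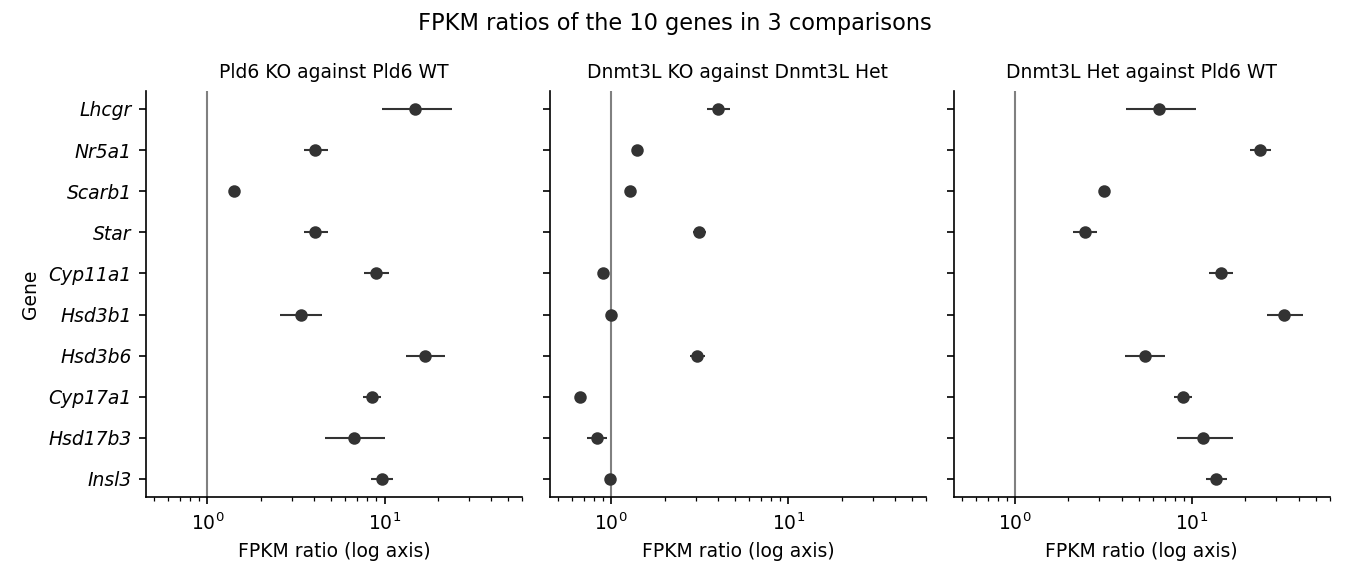
FPKM ratio of each gene in Pld6 KO against Pld6 WT, Dnmt3L KO against Dnmt3L Het and Dnmt3L Het against Pld6 WT, on a log axis, with 95% counting intervals and a line at a ratio of 1. All points of the left and right panels lie above 1, and in the middle panel Lhcgr (4.02), Star (3.15) and Hsd3b6 (3.05) lie apart from the other 7 genes.

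Levels were also set against each other inside each library, where depth cancels, with Cyp11a1 as the reference. Insl3 over Cyp11a1 was 5.26 in Dnmt3L Het, 5.73 in Dnmt3L KO, 6.0 in Pld6 KO and 5.56 in Pld6 WT, so that the highest ratio was 1.14 times the lowest, although Insl3 itself spanned from 14.7 to 202 FPKM. Hsd17b3 over Cyp11a1 was 0.226, 0.209, 0.212 and 0.283, a span of 1.36-fold. These 3 genes kept nearly one proportion across the libraries. Cyp17a1 over Cyp11a1 was 1.12, 0.825, 1.74 and 1.83, a span of 2.22-fold with the Pld6 line above the Dnmt3L line.

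The other 6 genes did not keep that proportion. Lhcgr over Cyp11a1 was 0.0408 in Dnmt3L Het, 0.182 in Dnmt3L KO, 0.152 in Pld6 KO and 0.0910 in Pld6 WT. Star over Cyp11a1 was 0.0903, 0.315, 0.240 and 0.528, and Hsd3b6 over Cyp11a1 was 0.147, 0.498, 0.745 and 0.395. For these 3 genes the lowest ratio was in Dnmt3L Het, and the spans were 4.46-fold, 5.85-fold and 5.06-fold. Nr5a1 over Cyp11a1 was 1.23, 1.89, 0.334 and 0.735, and Hsd3b1 over Cyp11a1 was 0.981, 1.08, 0.161 and 0.428. Both ratios were lowest in Pld6 KO. The pair stayed closer to each other than to Cyp11a1, since Hsd3b1 over Nr5a1 was 0.800, 0.571, 0.481 and 0.583, a span of 1.66-fold. Scarb1 over Cyp11a1 was 2.39, 3.38, 1.71 and 10.9, with Pld6 WT far above the others.

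**Figure D3:**
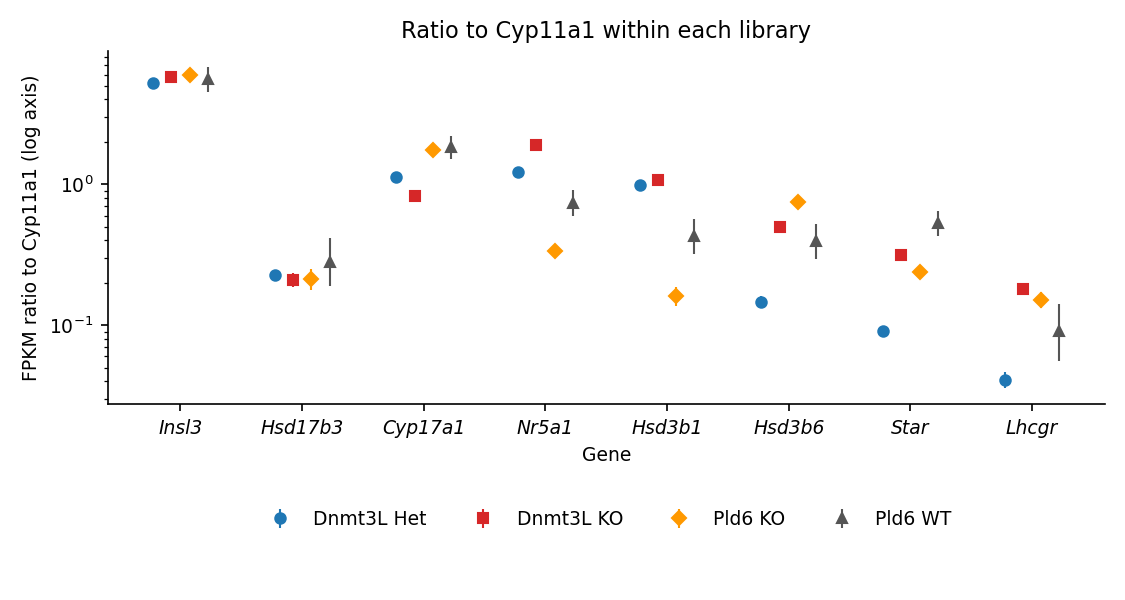
FPKM of 8 of the genes divided by that of Cyp11a1 in the same library, on a log axis, with 95% counting intervals; Scarb1 is left out. The 4 points of Insl3 (5.26 to 6.0) and of Hsd17b3 (0.209 to 0.283) lie close together, while those of Hsd3b1 run from 0.161 to 1.08.

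The ratio of Hsd3b1 to Hsd3b6 varied most of the ratios computed. It was 6.67 in Dnmt3L Het (6.11 to 7.28), 2.16 in Dnmt3L KO (2.03 to 2.31), 0.216 in Pld6 KO (0.184 to 0.252) and 1.08 in Pld6 WT (0.771 to 1.53). Hsd3b1 was thus the main transcript of the pair in the Dnmt3L line and Hsd3b6 in Pld6 KO, with neither ahead in Pld6 WT, and the extremes were 30.9-fold apart. The transcripts are 81.0% identical over 1786 aligned bases, but only 38 windows of 50 bases (2.10% of those of Hsd3b1) occur in both. Hsd3b6 shares more with other members of its family, 13.5% of its windows with Hsd3b2 and 12.5% with Hsd3b3. Hsd3b2 was at 0.453 FPKM in Dnmt3L Het, 1.10 in Dnmt3L KO, 1.58 in Pld6 KO and 0.0615 in Pld6 WT, and Hsd3b3 was at 0.943, 1.31, 1.24 and 0.163. Hsd3b2 had the same order of libraries as Hsd3b6, and both genes were higher in the knockouts than in the other libraries and far below Hsd3b6 in each.

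Markers of other somatic cells were present in the same libraries, and Sertoli markers had the highest sum in each library but Pld6 KO. The 15 Sertoli markers summed to 5560.1 FPKM in Dnmt3L Het, 7414 in Dnmt3L KO, 505 in Pld6 KO and 186 in Pld6 WT, and at least 13 of them reached 1 FPKM in each library. By sum, their difference between the lines was larger than that of the Leydig genes. Dnmt3L Het was 29.9-fold above Pld6 WT for the Sertoli sum and 8.35-fold for the sum of the 10 Leydig genes. Single Leydig genes ran from 2.49-fold (Star) to 24.2-fold (Nr5a1) and 33.3-fold (Hsd3b1), so the 2 highest were near the Sertoli sum. Between the knockouts, the ratio of Pld6 KO to Dnmt3L KO was 0.0682 for the Sertoli sum. Of the single markers, 14 of 15 were between 0.0176 (Amh) and 0.141 (Rhox5), and Trf alone was at 0.580. Hsd3b1 (0.102) and Nr5a1 (0.121) lay among those 14 markers, each above 13 of the 15. Scarb1 (0.346), Star (0.521) and Lhcgr (0.569) were above every Sertoli marker except Trf, and Cyp11a1 (0.683), Hsd17b3 (0.693), Insl3 (0.716), Hsd3b6 (1.02) and Cyp17a1 (1.44) were above all 15. Whether Sertoli RNA had a part in the levels of Nr5a1, Scarb1 or Hsd3b1 was not tested.

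**Figure D4:**
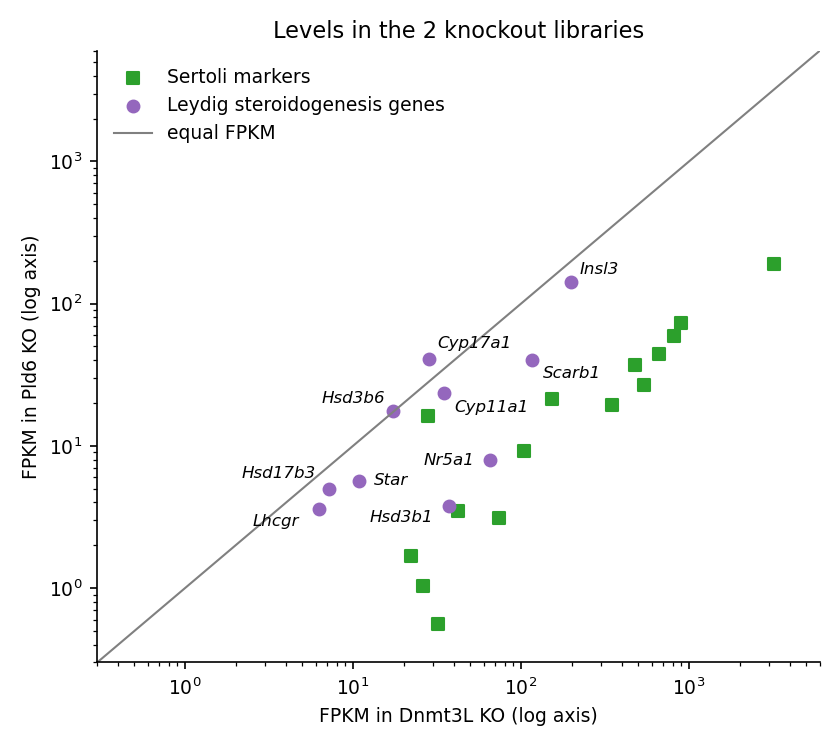
FPKM in Pld6 KO against FPKM in Dnmt3L KO for the 10 Leydig genes and the 15 Sertoli markers, both axes log, with a line of equal FPKM. Most Sertoli markers lie far below the line (ratio of sums 0.0682), with Hsd3b1 (0.102) and Nr5a1 (0.121) beside them, while Hsd3b6 (1.02) is on the line and Cyp17a1 (1.44) above it.

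Within the Pld6 line the Sertoli markers were also higher in the knockout, 9 of 15 called higher (background 4.69%) and 0 lower, with a median log2 change of 1.07 beside 1.83 for the Leydig genes. Peritubular muscle markers (6 genes) summed to 634, 326, 598 and 142 FPKM in Dnmt3L Het, Dnmt3L KO, Pld6 KO and Pld6 WT, and 5 of 6 were called higher in Pld6 KO than in Pld6 WT (background 4.69%). Endothelial markers (6 genes) summed to 12.8, 10.3, 33.0 and 11.4 FPKM, and macrophage markers (12 genes) to 138, 147, 64.3 and 36.3 FPKM. Without Aif1, which was left out after its values were seen (58.5 FPKM in Dnmt3L Het and 3.98 in Dnmt3L KO), the other 11 macrophage markers summed to 79.1, 143, 63.7 and 26.1 FPKM. The L/Z markers went the other way, summing to 1597, 997, 1654 and 2759 FPKM with the highest sum in Pld6 WT. Pld6 WT was thus the library with the least Leydig, Sertoli, macrophage and peritubular RNA and the most L/Z RNA. The part of cell makeup in the comparisons of the 10 genes was not tested. In the Dnmt3L line, where Lhcgr, Star and Hsd3b6 were higher in the knockout, 2 of 15 Sertoli markers were called higher (background 3.00%) and 4 of 6 peritubular markers lower (background 8.22%). Of the macrophage markers there, 10 of 12 were higher by any amount, beside 43.0% of all genes. Their median log2 change was 0.71, beside 0.00 over all genes, and 2 were called higher and 1, Aif1, lower. Named after its values were seen, Csf1r, a receptor that macrophages need, went from 2.72 FPKM in Dnmt3L Het to 8.12 in Dnmt3L KO. Aif1 and Fcgr3 went the other way, Fcgr3 from 4.42 FPKM in Dnmt3L Het to 3.23 in Dnmt3L KO. The part of macrophage RNA in the higher levels of Lhcgr, Star and Hsd3b6 was not tested.

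**Figure D5:**
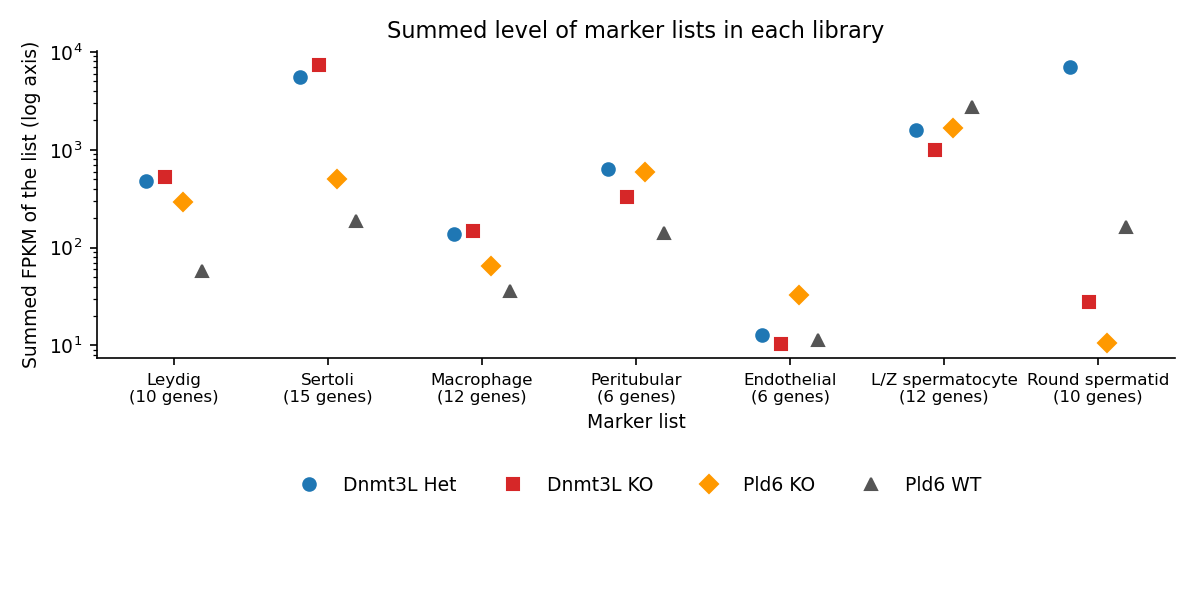
Summed FPKM of each cell type list in each library, on a log axis, with the number of genes in each list. The Leydig, Sertoli, macrophage and peritubular sums are lowest in Pld6 WT (57.3, 186, 36.3 and 142 FPKM), where the L/Z sum is highest (2759 FPKM).

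Other genes of the pathway were counted from 5 lists, with the same backgrounds as above. Of 16 regulators and receptors of Leydig cells, 8 were called higher and 0 lower in Pld6 KO against Pld6 WT (median log2 change 1.04), 3 and 0 in Dnmt3L KO against Dnmt3L Het (0.44), and 7 and 0 in Dnmt3L Het against Pld6 WT (0.91). Nr4a1, a nuclear receptor induced by luteinizing hormone signalling, was at 10.6 FPKM in Dnmt3L Het, 22.7 in Dnmt3L KO, 28.3 in Pld6 KO and 8.68 in Pld6 WT. Like Lhcgr and Star, it was higher in both knockouts than in both other libraries. That pattern was not particular to these genes. Among others, Pdgfra, Igf1, Igf1r and Ptch1 of this list and the macrophage markers Csf1r, Cd68 and C1qc shared it. Nr0b1, a repressor of NR5A1 that Sertoli cells also use, was at 78.3, 78.5, 4.99 and 2.68 FPKM, high in the Dnmt3L line and low in the Pld6 line as Hsd3b1 was. Named after its values were seen, Pdgfra, which marks interstitial progenitors, was at 9.32, 13.4, 15.8 and 2.84 FPKM, lowest in Pld6 WT like the members.

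Genes of cholesterol supply did not share the pattern of the 10 genes. Of 18, 1 was called higher and 0 lower in Pld6 KO against Pld6 WT, 1 higher and 1 lower in Dnmt3L KO against Dnmt3L Het, and 2 higher and 2 lower in Dnmt3L Het against Pld6 WT, with medians of 0.51, 0.0644 and -0.39. Hmgcs1, an early enzyme of cholesterol synthesis, was at 54.9, 77.8, 40.5 and 38.7 FPKM in Dnmt3L Het, Dnmt3L KO, Pld6 KO and Pld6 WT. Fdft1, squalene synthase, was at 58.4, 33.5, 44.0 and 46.6 FPKM. Most cell types can make cholesterol, and both were well expressed in all libraries. Among the called genes were the cholesterol esterifying enzyme Soat1 (higher in Dnmt3L KO and in Dnmt3L Het) and the hormone-sensitive lipase Lipe (lower in Dnmt3L KO), with Npc2 higher and Lss and Stard4 lower in Dnmt3L Het.

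Of 8 redox partners and mitochondrial import genes, 2 were called higher in Pld6 KO against Pld6 WT (Cyb5 and Tspo), 0 in Dnmt3L KO against Dnmt3L Het and 4 in Dnmt3L Het against Pld6 WT (Fdxr, Cyb5, Tspo and Vdac1), and 0 were called lower in any of them. Cyb5, cytochrome b5, which aids the lyase activity of CYP17A1, was at 236, 281, 38.9 and 18.4 FPKM in Dnmt3L Het, Dnmt3L KO, Pld6 KO and Pld6 WT. Vdac1, a pore of the outer mitochondrial membrane, was at 84.9, 126, 28.5 and 15.8 FPKM. Both were higher in the Dnmt3L line than in the Pld6 line, as Nr5a1 and Hsd3b1 were.

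Of 14 other steroid enzymes, 1 was called higher in Pld6 KO against Pld6 WT (Hsd3b2), 0 in Dnmt3L KO against Dnmt3L Het and 1 in Dnmt3L Het against Pld6 WT (Hsd3b7), and 0 were called lower. Hsd17b12, a widely expressed enzyme of fatty acid elongation, was at 54.3, 63.6, 51.9 and 60.8 FPKM, and Srd5a3, which serves protein glycosylation, was at 9.83, 11.5, 10.6 and 5.99 FPKM. The enzymes of adrenal steroids, Cyp11b1 and Cyp21a1, were under 1 FPKM in every library, at most 0.101 and 0.228. Of receptors for the products, Esr1, an estrogen receptor, was at 0.370, 2.10, 1.03 and 0.400 FPKM and was called higher in Dnmt3L KO. Rxfp2, the receptor of INSL3, was called lower in Dnmt3L KO, at 1.30, 0.0406, 0 and 0.591 FPKM.

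Genes with the pattern most like the members were sought over the 4 libraries among 14406 other genes with a mean of at least 1 FPKM. Each profile was log2(FPKM + 1) less its own mean, and likeness was the Euclidean distance to the median profile of the members. The 5 nearest were Olfml3 (distance 0.355), Dcn (0.376), Mme (0.376), Slc38a5 (0.395) and 6030408B16Rik (0.396). Dcn, the matrix proteoglycan decorin, was at 77.8 FPKM in Dnmt3L Het, 81.1 in Dnmt3L KO, 66.3 in Pld6 KO and 11.2 in Pld6 WT. Olfml3, a secreted glycoprotein, was at 28.5, 31.8, 14.3 and 2.66 FPKM, and Mme, the membrane peptidase neprilysin, at 13.1, 16.2, 7.98 and 1.42 FPKM. The amino acid transporter gene Slc38a5 was at 42.5, 36.5, 26.3 and 5.03 FPKM. Each of these was lowest in Pld6 WT, which follows from their choice by likeness to a profile that is lowest there. Among the members, Cyp11a1 was nearest to the shared profile (0.437, with 6 other genes nearer), followed by Hsd17b3 (0.646, with 24) and Insl3 (0.679, with 37), while Nr5a1 (1.75, with 1766) and Hsd3b1 (1.98, with 2697) were farthest. The 10 genes thus had no single profile in these libraries, and for 6 of them at least 665 other genes lay nearer to the shared one.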

How the data were processed

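PolyA(+) RNA of sorted L/Z spermatocytes was measured in 4 libraries, grouped by the genotype in the labels. Per the submitters' processing notes, the authors used TopHat and Cuffdiff with mm10 (versions not given in the sources used here), and they deposited 1 table of all libraries with estimated counts (fragments per gene, 97.3% to 97.4% of them whole) and FPKM. The 2 columns of scaled fragments were not used. In 28 genes 31 values were marked as failed, 0 of them in the 10 genes.

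FPKM + 1 was compared with a threshold of 2-fold over all 23980 genes. Since each genotype had 1 library, no edgeR fit or other test was run. Ratios of FPKM were given exact 95% intervals from the fragments. Alternatives were a pseudocount of 0.1 FPKM, a threshold of 3-fold, other scalings, a minimum mean of 1 FPKM, Hsd3b1 and Hsd3b6 summed, and the control of the other line. Scripts were tested on simulated data. Positions and promoters were from RefSeq GRCm38.p6 and transcripts for shared 50-base windows from GENCODE. Adgre1 was matched as Emr1 and Cyb5a as Cyb5. Named were all 10 genes, the 5 nearest in profile, the 2 most abundant genes of each of the 5 pathway lists (where under 2 were called one way throughout), and called or other genes named after their values were seen. The values of 3 genes of these lists are not reported here. Members and lists were chosen with earlier results of these data known. Python 3.11.15, pandas 2.3.3, numpy 2.4.6, scipy 1.17.1 and Biopython 1.88 were used.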

Additional observations from a re-analysis of the deposited data

Results flagged for a closer look

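Cyp11a1, Cyp17a1 and Hsd17b3 stood higher in the knockout than in the control of the Pld6 line but lower in the knockout of the Dnmt3L line, with the counting intervals of both ratios off 1. On the log2 scale of FPKM + 1, the change in the Pld6 line less that in the Dnmt3L line was 2.90 for Cyp11a1 (2.76 and -0.15), 3.43 for Cyp17a1 (2.85 and -0.57) and 2.02 for Hsd17b3 (1.78 and -0.24). Whether these changes differ by line was not tested, as no genotype had more than 1 library. Pld6 WT, the control of the Pld6 line, was the lowest library for all 10 genes.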

How the results depend on the processing

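With Dnmt3L Het as the control of Pld6 KO, the genes called higher went from 9 to 1 and those called lower from 0 to 3, the median log2 change went from 1.83 to -0.59, and the change turned negative for Nr5a1 (-2.43), Scarb1 (-1.16), Cyp11a1 (-0.68), Hsd3b1 (-3.01), Cyp17a1 (-0.064), Hsd17b3 (-0.69) and Insl3 (-0.50). With Pld6 WT as the control of Dnmt3L KO, the genes called higher went from 3 to 10, the median from 0.17 to 2.86, and the change turned positive for Cyp11a1 (3.29), Hsd3b1 (4.17), Cyp17a1 (2.34), Hsd17b3 (2.23) and Insl3 (3.67). The cause was not tested. A pseudocount of 0.1 FPKM raised the median to 2.83 in Pld6 KO against Pld6 WT and to 3.25 in Dnmt3L Het against Pld6 WT, and the genes higher in Pld6 KO than in both other libraries from 1 to 2. At 3-fold, 0 genes were called higher in Dnmt3L KO against Dnmt3L Het, 0 in Dnmt3L KO beyond both and 0 in Pld6 KO beyond both. With Hsd3b1 and Hsd3b6 summed, the median was 0.33 in Dnmt3L KO against Dnmt3L Het and 2.92 in Dnmt3L Het against Pld6 WT, the change of Hsd3b1 in Dnmt3L KO turned to 0.33, and 0 genes were called higher in Pld6 KO beyond both. The motif of 6 letters, an added search, matched 2 windows where the longer motif matched 0. Of 137 alternative changes of single genes, 90 stayed within the counting interval, 34 moved beyond it in the same direction and 13 reversed. Scaling by total fragments or by median-of-ratios size factors left the counts of called members as they were. Among the 14416 genes with a mean of at least 1 FPKM, the background called higher was larger. It was 7.41% in Pld6 KO against Pld6 WT and 4.61% in Dnmt3L KO against Dnmt3L Het. In Dnmt3L Het against Pld6 WT it was 17.6%, and the counts of members called higher were unchanged in all of these.

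No paired analysis was possible because each genotype had 1 library, and leaving out a library was not possible for the same reason. Depth was not the limit for most of the 10 genes, since only Lhcgr and Hsd17b3 in Pld6 WT rested on fewer than 50 fragments. The missing replicates, the unknown number of animals and the somatic RNA in every library limit what the ratios say about genotype.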
